A study of Homo sapiens with 2 samples.

Results

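The genes described here encode the NF-kB transcription factor subunits (NFKB1, NFKB2, RELA, RELB and REL), the inhibitors that hold them in the cytoplasm (NFKBIA, NFKBIB and NFKBIE), the negative regulator TNFAIP3 and the signalling adaptor TRAF1. They were chosen by symbol from the table of 60612 genes, and each of the 10 symbols stood in 1 row. RNA came from MDA-MB-231, a human triple negative breast cancer cell line. The 2 libraries were 1 control, from cells kept in normal medium without D16, and 1 treated library, from cells given 24 µM D16, a compound named a chalcone in the labels, for 48 h. No vehicle is named for the control. With 1 library per group there is no replicate check and no p-value, so "higher" and "lower" describe these 2 libraries, and each 95% interval covers counting error only.

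NF-kB dimers bind kB elements in DNA and switch on genes of inflammation, adhesion and survival. IkB proteins keep the dimers inactive until the IKK kinases mark them for degradation, while a second route, through the kinase NIK, processes the NFKB2 product for use with RELB. NFKBIA, TNFAIP3, NFKB1, NFKB2, RELB and TRAF1 are known as NF-kB target genes themselves, and MDA-MB-231 cells are known for NF-kB activity without added stimulus.

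The 10 genes did not differ in 1 direction. TRAF1, NFKBIB, RELA, NFKBIE and RELB were higher in the treated library, NFKBIA was lower, and NFKB2, NFKB1 and TNFAIP3 lay close to their control level. REL was scarce in both libraries. A filter on low values kept 9 of the 10, those whose mean reached 1 FPKM (fragments per kilobase of transcript and per library size). Of these 9, 2 were 2-fold higher or more on the log2(FPKM + 1) scale, against 3.63% of the 11830 genes that passed the same filter, and 0 were 2-fold lower, against 3.97%. At 1.5-fold, 5 of the 9 were higher, against 13.2% of all genes, and 1 was lower, against 11.0%. The median log2 difference of the 9 genes was 0.61, beside 0.08 over all 11830. REL, at a mean of 0.311 FPKM, did not pass this filter and is described by its own values. All counts of genes past 2-fold are on the log2(FPKM + 1) scale, which shrinks low genes, while ratios printed beside levels are of FPKM itself, so a ratio can exceed 2 where the count does not include the gene.

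**Figure D1:**
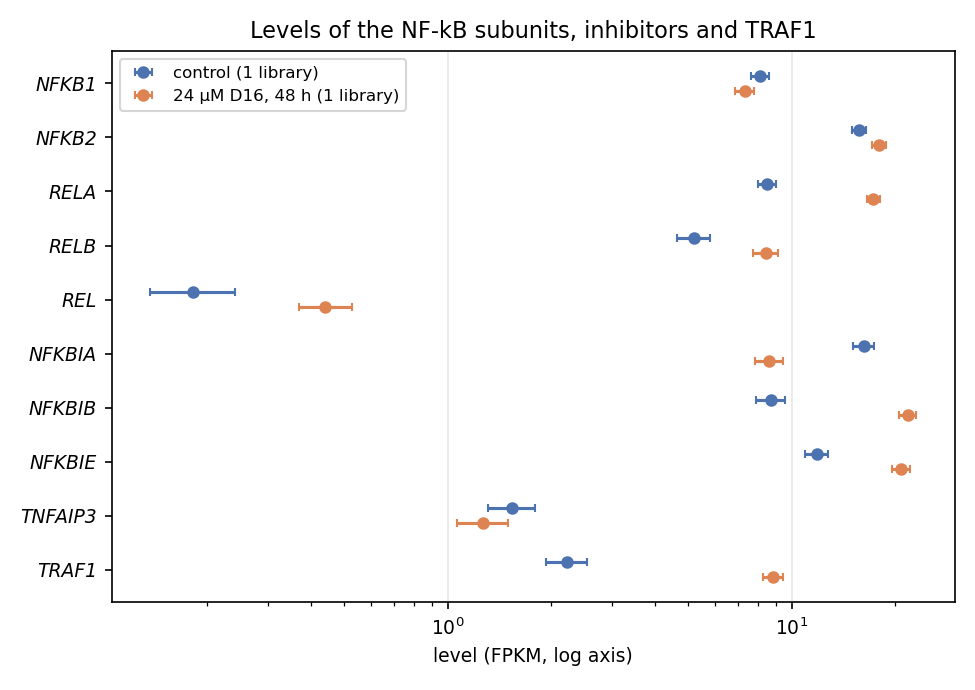
Levels in FPKM (log axis) of the 10 genes in the control library (blue) and the library from cells given 24 µM D16 for 48 h (orange); each point is 1 library and bars are exact Poisson 95% intervals of the read pairs, covering counting error only. TRAF1 lay at 2.22 and 8.85 FPKM, NFKBIB at 8.69 and 21.8 FPKM, and NFKBIA at 16.2 and 8.59 FPKM.

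Total counts per library were 72108404 (control) and 73303902 (treated), with 4 counts to a read pair. The direction of small differences depends on scaling. On the deposited scale, 47.8% of genes beyond 2-fold lay higher in the treated library. The share was 66.5% after rescaling both libraries to equal FPKM sums, a shift of the all-gene median by 0.15 (log2), and 31.0% after centring, a shift by -0.15. Of 10 identity and receptor genes of the line, 8 reached a mean of 1 FPKM, and 2 of these passed 2-fold on the lower side, as 3.97% of all genes did. These were the metastasis-associated S100A4, at 174 and 71.1 FPKM, and the protease gene PLAU, at 135 and 66.2 FPKM, which is also in a list of NF-kB targets. The mesenchymal filament gene VIM stood at 502 and 259 FPKM, the caveolar coat gene CAV1 at 55.1 and 73.7 FPKM and the adhesion receptor CD44 at 25.6 FPKM in both libraries. Of the receptors that define triple negative cancer, ESR1 (0.0192 and 0.00935 FPKM) and PGR (0 in both) were near or at 0, while ERBB2 message was present at 5.38 and 5.72 FPKM. The part of these identity genes in the results was not tested. Of 10 blood cell markers, 9 had a mean under 1 FPKM and 4 were at 0 in both libraries, and the exception was CD68, at 61.6 and 75.5 FPKM. The 8 fibroblast markers summed to 6.43 FPKM in the control and 5.26 FPKM in the treated library. In bulk RNA, fewer cells that express a gene and less RNA per cell cannot be told apart.

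Of the 4 subunits that passed the filter, RELA had the highest ratio. RELA, the subunit with the main activating domain of the classical NF-kB dimer, is a protein-coding gene on the minus strand of chromosome 11 (positions 65653597 to 65663090). It stood at 8.49 FPKM in the control and 17.3 FPKM in the treated library, a ratio of 2.04 (95% interval 1.89 to 2.20). On the log2(FPKM + 1) scale its difference was 0.95, just inside the 2-fold line and above that of 95.7% of all genes tested. The level of NFKB1, whose precursor protein is shortened to the DNA-binding partner of RELA, was 8.12 and 7.31 FPKM, a ratio of 0.900 (0.826 to 0.981). The interval stops just short of equal levels, and after rescaling to equal sums the difference of NFKB1 was 0.03 in place of -0.13, so its direction is not firm. RELA and NFKB1 were thus near the same level per length in the control library, with a RELA to NFKB1 ratio of 1.05 (0.958 to 1.14), whereas RELA was 2.37 times NFKB1 (2.19 to 2.55) in the treated library.

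The subunits of the alternative route differed by less than RELA. RELB, an activating subunit that pairs with the processed NFKB2 product, stood at 5.19 and 8.43 FPKM, 1.62-fold higher in the treated library (1.41 to 1.86). NFKB2 was the most abundant subunit message in both libraries, at 15.7 and 17.9 FPKM (1.14-fold, 1.07 to 1.22). RELB was therefore at 0.331 of the NFKB2 level per length in the control (0.293 to 0.373) and at 0.470 in the treated library (0.426 to 0.516). REL, best known as a subunit of lymphocytes, stood at 0.182 and 0.440 FPKM, from about 51 and 128 read pairs. This ratio of 2.42 (1.73 to 3.41) rests on few reads, and REL shares 5702 bp on the same strand with the RNA gene AC010733, at 0.918 and 0.591 FPKM. With the counts of overlapping genes added, the REL ratio was 1.20. That sum takes in the whole of AC010733, which was lower, so it falls by construction. It cannot show how many reads the genes share.

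**Figure D2:**
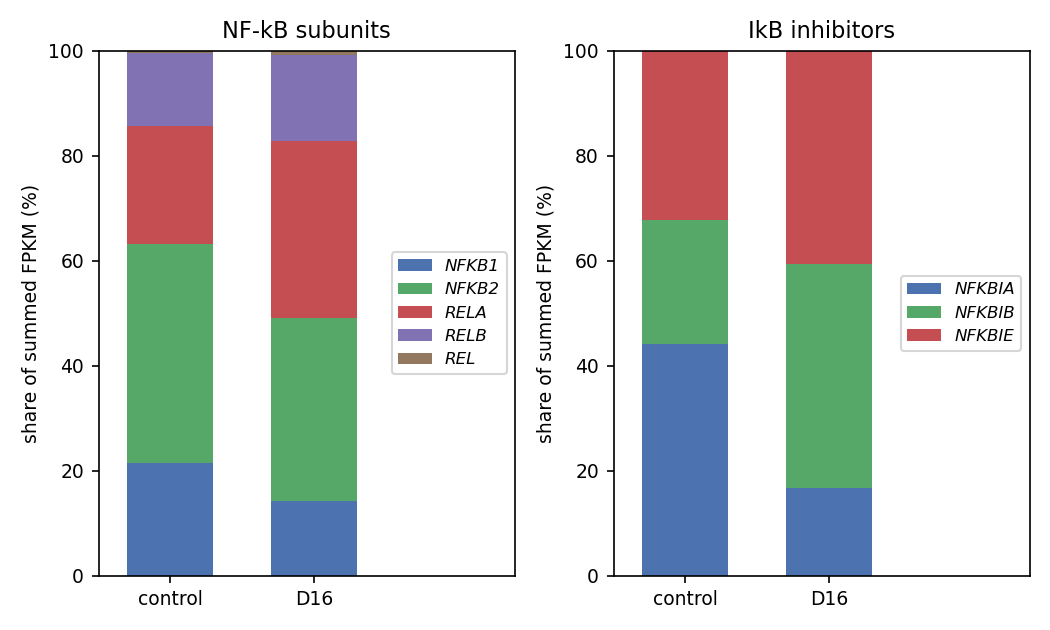
Share of each gene in the summed FPKM of the 5 NF-kB subunits (left) and the 3 IkB inhibitors (right), 1 bar per library, in percent. RELA went from 22.5% to 33.6% of the subunit messages, and NFKBIA from 44.1% to 16.8% of the inhibitor messages.

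Summed over the 5 subunits, the level was 37.7 FPKM in the control and 51.4 FPKM in the treated library, 1.36 times as much. NFKB2 made up 41.7% of that sum in the control and 34.9% in the treated library, NFKB1 21.5% and 14.2%, and RELB 13.8% and 16.4%. RELA thus came close to NFKB2 in the treated library, where their counting intervals overlapped, and REL stayed under 1% in both.

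The 3 inhibitors of the IkB family changed places. NFKBIA, which encodes IkB alpha, the inhibitor that NF-kB resynthesises fastest to end its own activity, was the most abundant of the 10 messages in the control library. It stood at 16.2 FPKM there and at 8.59 FPKM after treatment, which was 1.89-fold lower (1.68 to 2.13), with a log2 difference of -0.85 that lay below that of 94.1% of all genes tested. NFKBIB, which encodes IkB beta, a slower inhibitor, stood at 8.69 and 21.8 FPKM, 2.50-fold higher in the treated library (2.24 to 2.81). NFKBIE, which encodes IkB epsilon, stood at 11.8 and 20.8 FPKM, 1.76-fold higher (1.60 to 1.94). Neither NFKBIA nor NFKBIE reached 2-fold, and the intervals of all 3 ratios lay on 1 side of equal levels.

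The order of the inhibitors by level per length was reversed between the libraries. NFKBIA was 1.87 times NFKBIB in the control (1.66 to 2.11), and NFKBIB was 2.53 times NFKBIA in the treated library (2.27 to 2.83). NFKBIB and NFKBIE could not be told apart in the treated library by counting error, with a NFKBIB to NFKBIE ratio of 1.04 (0.962 to 1.14), while in the control that ratio was 0.734 (0.648 to 0.830). The sum of the 3 inhibitors was 36.8 FPKM in the control and 51.2 FPKM in the treated library, a ratio of 1.39 beside 1.36 for the subunits. Against RELA alone, NFKBIA was 1.91 times as abundant in the control (1.74 to 2.10) and 0.497 times in the treated library (0.447 to 0.550), whereas NFKBIB was 1.02 times (0.911 to 1.15) and 1.26 times (1.17 to 1.35).

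NFKBIB lies head to head with SIRT2, a deacetylase gene on the opposite strand of chromosome 19, and their bodies share 163 bp. SIRT2 stood at 6.19 and 6.81 FPKM. Libraries were strand-marked, and the sources used here do not give whether the counting used strand. With all SIRT2 counts added to those of NFKBIB, the ratio was 1.58 in place of 2.50. This sum takes in the whole of SIRT2, so it moves towards the near-level SIRT2 ratio by construction. It cannot show how many reads the 2 genes share. RELA shares 85 bp with the divergent RNA gene RELA-DT, at 0.487 and 0.0601 FPKM, and adding its counts gave 1.96 in place of 2.03 from the counts of RELA alone.

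TNFAIP3 and TRAF1, both known NF-kB targets, went separate ways. TNFAIP3 encodes A20, a ubiquitin-editing enzyme that shuts off signalling from the TNF receptor, and stood at 1.54 and 1.27 FPKM. Its ratio of 0.821 had an interval of 0.652 to 1.04 that includes equal levels, so no difference was detectable at about 165 and 141 read pairs. TRAF1, an adaptor that binds TRAF2 and the cIAP ligases at TNF receptors but lacks the RING domain of other TRAF proteins, stood at 2.22 and 8.85 FPKM. It was 3.98-fold higher in the treated library (3.42 to 4.65), and only 1.04% of all genes tested had a higher log2 difference. TRAF1 moved from 0.255 of the TRAF2 level (0.217 to 0.298) to 0.838 of it (0.762 to 0.922), while TRAF2 itself stood at 8.70 and 10.6 FPKM. On the map, TRAF1 lies on the minus strand of chromosome 9 (positions 120902393 to 120926796) and TNFAIP3 on the plus strand of chromosome 6 (137867214 to 137883312), and no other gene body in the table overlaps TRAF1.

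**Figure D3:**
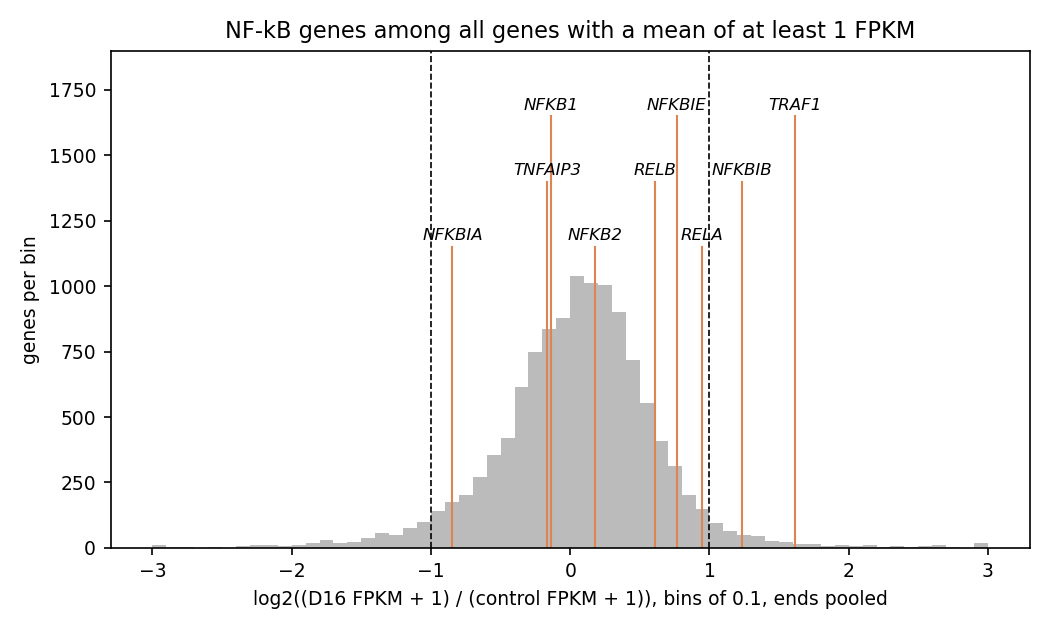
Histogram of the log2 difference, log2((treated FPKM + 1) / (control FPKM + 1)), of the 11830 genes whose mean reached 1 FPKM (grey; values beyond 3 in either direction are pooled in the end bins), with 9 NF-kB genes as orange lines whose heights carry no value and dashed lines at 2-fold. TRAF1 and NFKBIB lie beyond the right dashed line, RELA just inside it, and NFKBIA lies inside the left one at -0.85.

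The remaining genes, in the table's coordinates, lie at chr4:102501331-102617302 (NFKB1, plus strand), chr10:102394110-102402524 (NFKB2, plus strand), chr19:45001449-45038198 (RELB, plus strand) and chr2:60881521-60931612 (REL, plus strand). The inhibitors lie at chr14:35401513-35404749 (NFKBIA, minus strand), chr19:38899700-38908893 (NFKBIB, plus strand) and chr6:44258166-44265788 (NFKBIE, minus strand). Levels cover the whole gene, and the table lists between 3 transcripts (TRAF1 and REL) and 27 (RELA) for each.

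Ranked by level per length, the control library ran NFKBIA, NFKB2, NFKBIE, NFKBIB, RELA, NFKB1, RELB, TRAF1, TNFAIP3 and REL. Counting intervals overlapped between NFKBIA and NFKB2, between NFKBIB and RELA and between RELA and NFKB1. In the treated library the order was NFKBIB, NFKBIE, NFKB2, RELA, TRAF1, NFKBIA, RELB, NFKB1, TNFAIP3 and REL. There, the intervals overlapped between NFKBIB and NFKBIE, between NFKB2 and RELA, and between neighbours in the run from TRAF1 through NFKBIA and RELB to NFKB1. NFKBIA thus moved from the first to the sixth place, and NFKBIB moved from the fourth to the first.

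Promoter sequence is shown for TRAF1 and NFKBIB, the 2 genes past 2-fold, and for NFKBIA and TNFAIP3, the inhibitors best known for feedback through kB elements. These 4 were picked with values and matches known, so they are examples and no comparison is made between them. The RefSeq promoter table on GRCh38.p14 held windows for 8 of the 10 genes, from 250 bases before to 50 after a transcript start. Windows for RELB and NFKBIE were not used here. Of each gene, the window whose start lies nearest to that in the deposited table was searched on both strands for the kB consensus of 10 bases. The first 250 bases of each window run 5′ to 3′ on the gene's strand up to the start site, and capitals mark a match, which may lie on either strand.
NFKBIA (chr14:35404750-35404999, minus strand): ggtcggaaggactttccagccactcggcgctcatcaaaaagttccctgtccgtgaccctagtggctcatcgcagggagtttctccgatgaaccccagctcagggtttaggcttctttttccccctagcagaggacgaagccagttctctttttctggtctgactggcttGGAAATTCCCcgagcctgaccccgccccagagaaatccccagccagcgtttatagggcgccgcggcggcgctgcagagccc
TNFAIP3 (chr6:137867009-137867258, plus strand): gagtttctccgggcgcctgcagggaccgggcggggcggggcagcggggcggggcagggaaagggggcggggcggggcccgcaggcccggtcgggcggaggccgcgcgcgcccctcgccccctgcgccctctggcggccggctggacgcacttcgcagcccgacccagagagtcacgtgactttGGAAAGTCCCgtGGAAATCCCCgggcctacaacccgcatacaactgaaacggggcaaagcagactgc
NFKBIB (chr19:38899416-38899665, plus strand): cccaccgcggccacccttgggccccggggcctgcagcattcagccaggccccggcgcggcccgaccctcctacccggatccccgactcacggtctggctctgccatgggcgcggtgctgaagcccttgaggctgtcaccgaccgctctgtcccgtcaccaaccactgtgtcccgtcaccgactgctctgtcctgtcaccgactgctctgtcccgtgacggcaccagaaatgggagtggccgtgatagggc
TRAF1 (chr9:120926797-120927046, minus strand): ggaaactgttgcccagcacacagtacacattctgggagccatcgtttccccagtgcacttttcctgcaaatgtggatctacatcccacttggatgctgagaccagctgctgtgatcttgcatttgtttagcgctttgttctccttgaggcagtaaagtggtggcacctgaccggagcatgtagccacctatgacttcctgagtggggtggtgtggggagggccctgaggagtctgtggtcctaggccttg

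NFKBIA held GGGAATTTCC on the strand opposite to the gene, 81 bases before the start, which reads as the capitals on the gene's strand. TNFAIP3 held a pair of matches on the opposite strand, GGGACTTTCC and GGGGATTTCC, 67 and 55 bases before the start. NFKB1 held GGGAATTTCC 49 bases before its start, and REL held GGGAAATTCC 47 bases before its start, where an overlapping match lies on the other strand. The nearest windows of NFKBIB, TRAF1, RELA and NFKB2 held none. In all, 4 of 8 nearest windows had a match, against 13.1% of the 8634 tested genes with a window and 11.3% of all 35116 windows in the table, many of them from the same gene. NFKBIA, TNFAIP3 and NFKB1 were named above as known NF-kB targets, so the share of 4 of 8 is no independent evidence. Median G or C content was 69% in the 8 windows and 65.7% in the 8634. REL is among the 8 but not among the 8634 tested genes. Other windows of the same genes changed this picture for NFKBIB and NFKB2. A second NFKBIB window, with a start 269 bases from that in the table, held 4 matches at 2 separate sites, each matched on both strands. One site, GGGAATTTCC, lies 28 bases before its start and the other lies 38 bases after it. Both other NFKB2 windows held matches, while all 3 TRAF1 windows and both RELA windows held none. The printed TRAF1 window follows the start in the deposited table, and 54% of its bases are G or C. Another TRAF1 start lies 2375 bases upstream of that one, and 71.3% of the bases in its window are G or C. A match describes letters in a window and says nothing of whether a factor was bound.

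Among listed NF-kB targets outside the 10 genes, more were lower in the treated library than higher. The lists leave out TRAF1 and RELB, known targets that were higher, and NFKBIA, which was lower. They also leave out NFKB1, NFKB2 and TNFAIP3, known targets near their control level. GADD45B, a KEGG pathway gene described below and 2.65-fold higher, is not in them either. Also outside them are NFKBIE, which was higher, the scarce REL, and NFKBIZ, BCL3 and BIRC3, described below, which were lower. These names are not a full tally of known targets. Of 23 cytokine and chemokine targets listed, 10 reached a mean of 1 FPKM, 6 of these passed 2-fold on the lower side (3.97% of all genes did) and 0 on the higher side, and their median log2 difference was -1.31. Another 5 of the list were listed at 0 in the treated library alone, each with a mean under 1 FPKM. Levels of IL6, which encodes an inflammatory cytokine, were 18.2 and 2.21 FPKM, and the neutrophil chemokines CXCL2 and CXCL8 stood at 6.71 and 1.13 FPKM and at 21.8 and 5.37 FPKM. CXCL1, a chemokine of the same family, stood at 4.63 and 0.179 FPKM, from about 134 and 6 read pairs. IL11, another cytokine, was the 1 gene above 0 among the 10 measured, at 23.9 and 38.03 FPKM, and is named although it lies outside the rule for named genes. Of 34 other targets, 23 were measured, with 6 past 2-fold on the lower side, 0 on the higher side and a median of -0.42. SAA1 and SAA2, acute-phase proteins whose near-identical sequences can share reads, stood at 36.3 and 6.46 FPKM and at 5.44 and 0.800 FPKM. The adhesion receptor ICAM1 stood at 25.9 and 5.36 FPKM and the pattern receptor PTX3 at 56.6 and 15.1 FPKM. The lists were chosen with earlier results of these libraries known, so their direction is no independent evidence.

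Beside these targets, the nearest promoter windows of IL6, CXCL1 and CXCL2 held kB matches as well. The IL6 window held GGGATTTTCC 73 bases before its start, and those of CXCL1 and CXCL2 held GGGAATTTCC 79 and 78 bases before theirs. CXCL8 and ICAM1 held none under this consensus. Of 24 measured targets with a window, 10 had a match, with 13.1% among all tested genes. These genes were listed as known NF-kB targets, so a higher share of kB matches is no independent evidence. Of the 10 genes, the nearest windows of NFKBIA, which was lower, and of NFKB1 and TNFAIP3, near their control level, held matches. The REL window did as well, but REL did not pass the filter. Its ratio of 2.42 was 1.20 with all counts of overlapping genes added, a sum that cannot show how many reads are shared. The nearest windows of TRAF1, NFKBIB and RELA, which were higher, held none, though a second NFKBIB window did. That of NFKB2, near its control level, held none either, though its other windows did. RELB and NFKBIE, which were higher, had no window searched, so these few genes show no pattern. Whether matches and differences go together was not tested.

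**Figure D4:**
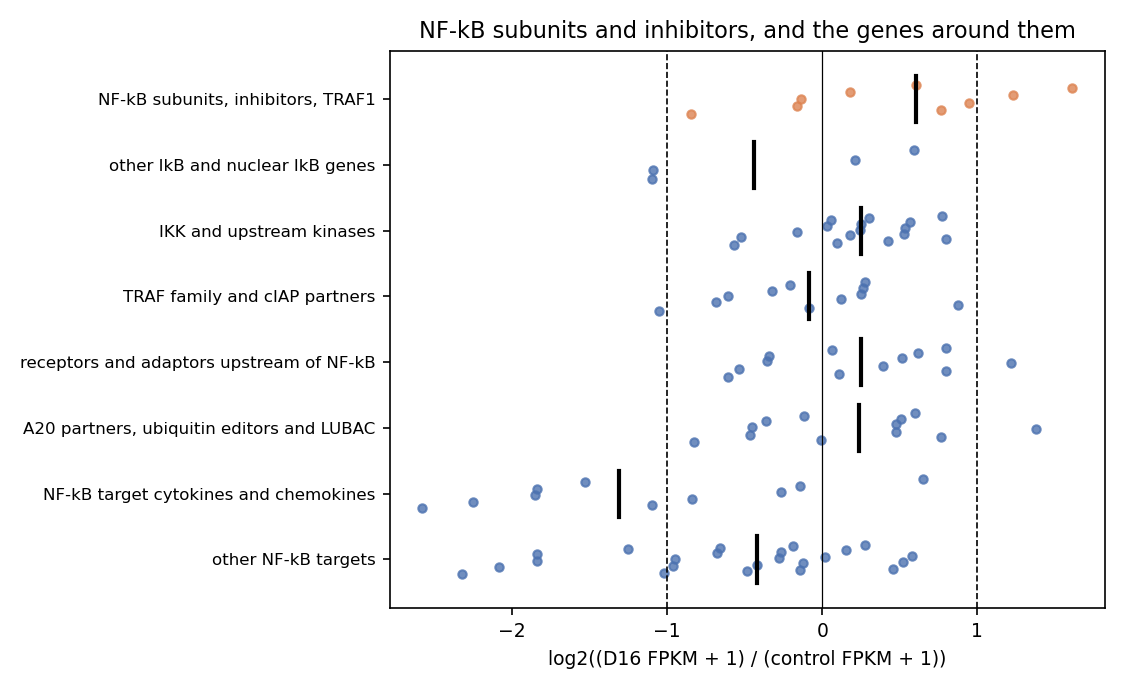
Log2 difference, log2((treated FPKM + 1) / (control FPKM + 1)), of each measured gene in the 8 lists, with the NF-kB subunits, inhibitors, TNFAIP3 and TRAF1 in orange, the other lists in blue, a black bar at each list's median and dashed lines at 2-fold; vertical scatter carries no value. The 9 NF-kB genes have a median of 0.61 and the 10 cytokine and chemokine targets one of -1.31.

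The nuclear relatives of the IkB proteins were on the lower side with NFKBIA. NFKBIZ, which acts with NF-kB at a subset of inflammatory genes, stood at 6.03 and 2.28 FPKM, and was 2.65-fold lower after treatment (2.31 to 3.03). BCL3, a cofactor of the p50 and p52 homodimers, stood at 5.93 and 2.26 FPKM, 2.63-fold lower (2.17 to 3.18). Of the 4 measured genes in this list of 5, these 2 were past 2-fold, both lower. COMMD1, which promotes the turnover of RELA, stood at 5.21 and 8.35 FPKM, and NFKBIL1, a distant relative, at 13.6 and 15.9 FPKM.

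The kinases between the receptors and the IkB proteins, listed with some of their binding partners, stayed within 2-fold, all 16 genes. Of these, 13 lay above 0 and their median log2 difference was 0.25. CHUK, the IKK alpha subunit, stood at 4.61 and 8.75 FPKM (1.9-fold, 1.73 to 2.08), and IKBKG, the regulatory subunit NEMO, at 6.32 and 11.5 FPKM (1.82-fold, 1.62 to 2.04). IKBKB, the IKK beta subunit, went the other way, at 4.61 and 2.89 FPKM, 1.59-fold lower (1.45 to 1.75). IKBKB is named although it lies outside the rule for named genes. IKBKE, a related kinase of the interferon pathway, stood at 5.17 and 3.16 FPKM, and IRAK4, which relays interleukin-1 and Toll-like receptor signals, at 0.932 and 1.85 FPKM.

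In the family of TRAF1, 1 of 11 measured genes passed 2-fold on the lower side and 0 on the higher side, and the median was -0.09. TRAF3, which keeps NIK low and so restrains the alternative route, stood at 4.6 and 1.70 FPKM, and was 2.72-fold lower after treatment (2.38 to 3.11). TRAF4, an adaptor of another branch of the family, stood at 3.18 and 6.68 FPKM, a ratio of 2.10 (1.83 to 2.41) that came to 0.88 on the log2(FPKM + 1) scale. BIRC3 and BIRC2, the cIAP ubiquitin ligases that TRAF1 and TRAF2 carry, stood at 8.27 and 4.77 FPKM and at 29.4 and 18.9 FPKM. TRAF1, with a log2 difference of 1.61, thus lay above all 11 of these relatives and partners, the highest of which was TRAF4.

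Receptors and adaptors upstream of NF-kB included 1 gene of 12 measured that passed 2-fold on the higher side of the log2(FPKM + 1) scale, TNFRSF12A, the receptor for TWEAK, at 53.9 and 126 FPKM (2.35-fold, 2.23 to 2.47). LTBR, the lymphotoxin beta receptor, which feeds the alternative route, stood at 6.90 and 12.7 FPKM, the Toll-like receptor adaptor TICAM1 at 6.08 and 11.3 FPKM, and TNFRSF11A, the receptor RANK, at 0.633 and 1.5 FPKM. The plain ratio of TNFRSF11A was 2.37 (1.9 to 2.94), with a log2(FPKM + 1) difference of 0.62. On that scale 0 of the 12 passed 2-fold on the lower side, and the median was 0.25. IL1R1, an interleukin-1 receptor gene outside the rule for named genes, stood at 1.52 and 0.734 FPKM, 2.07-fold lower as a plain ratio (1.65 to 2.61) and at -0.54 on the log2(FPKM + 1) scale. Around TNFAIP3, 1 of 12 measured partners and ubiquitin editors passed 2-fold on the higher side of the same scale and 0 on the lower side, and the median was 0.24. This was RNF11, a member of the A20 complex, at 13.2 and 36.0 FPKM (2.72-fold, 2.51 to 2.94). The deubiquitinase OTUD7B stood at 3.22 and 6.18 FPKM, the A20-binding protein TNIP2 at 11.3 and 17.5 FPKM, and ZC3H12A, a ribonuclease that degrades inflammatory messages, at 3.50 and 1.54 FPKM. The plain ratio put ZC3H12A 2.27-fold lower (1.79 to 2.89), with a log2(FPKM + 1) difference of -0.82. Over all 7 lists around the 10 genes, 2 of 88 measured genes passed 2-fold on the higher side (3.63% of all genes did) and 15 on the lower side (3.97% did), and 12 of the 15 were in the lists of target genes.

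The differences of the 10 genes were recomputed with other pseudocounts, scalings and ways of counting. NFKBIA lay between -0.99 and -0.64 and never reached 2-fold. TRAF1 ran from 0.94 to 1.95 and NFKBIB from 0.61 to 1.40. The lowest TRAF1 value came from a pseudocount of 5 FPKM, which also put NFKBIB at 0.97, and the lowest NFKBIB value came from adding the SIRT2 counts. RELA, from 0.72 to 1.11, passed 2-fold with a pseudocount of 0.1 FPKM (1.02) and after rescaling to equal sums (1.11). RELB and NFKBIE stayed above 0 under each of these settings, from 0.40 to 0.76 and from 0.62 to 0.94, and TNFAIP3 below 0, from -0.31 to -0.06. NFKB2 ran from 0.03 to 0.35 and REL from 0.04 to 1.02.

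**Figure D5:**
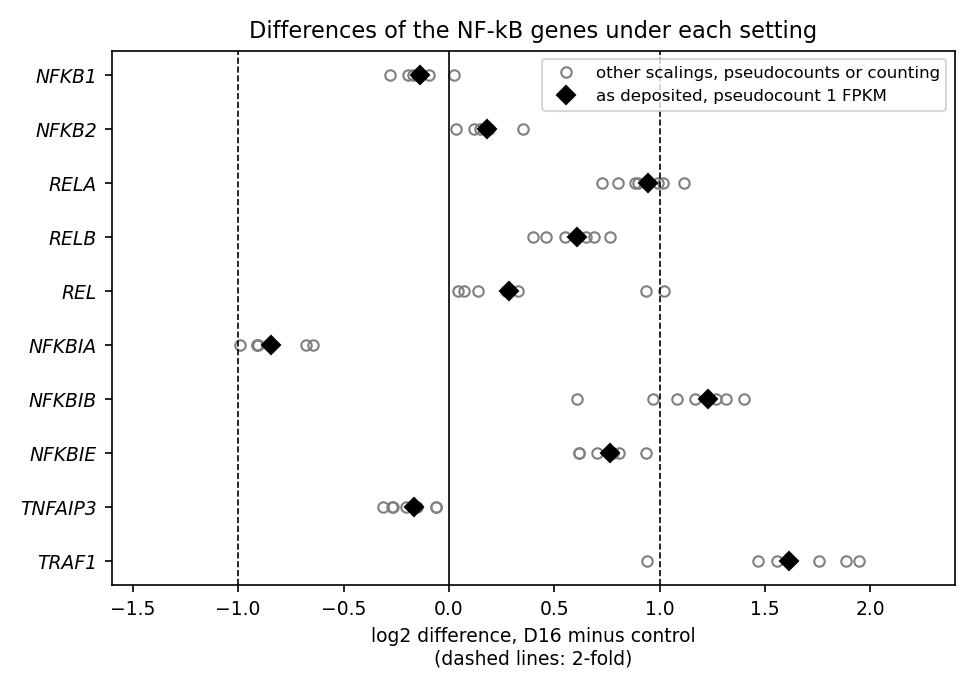
Log2 difference, treated minus control, of the 10 genes as deposited with a pseudocount of 1 FPKM (black diamonds) and under 7 or 8 alternatives (grey circles), with dashed lines at 2-fold. TRAF1 and NFKBIB lie past 2-fold in most settings, RELA at the line, and NFKBIA between -0.99 and -0.64.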

How the data were processed

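RNA-seq covered MDA-MB-231 cells, with 1 library per group. StringTie 1.3.4d, HISAT2 2.0.4 and cutadapt 1.9 are named, without roles, in the submitters' processing notes. The sources used here give no genome build. Coordinates follow the deposited table, and both ends of 9 of the 10 genes lay within 50 bp of those in GENCODE release 29 on GRCh38. For the other gene an end differed by 2377 bp. The FPKM values were deposited by the authors, per the file headers, and absent genes, listed at 0.0001, were read as 0. The deposited estimated counts, named so from their values, are whole numbers, and 3, 4 and 5 counts were held by 473, 1308 and 254 control genes, so each read pair was taken to give 4 counts. Ratios of FPKM and of counts followed each other within 1% for 98.4% of 13018 genes, after a common factor of 0.962.

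Differences were log2((treated FPKM + 1) / (control FPKM + 1)), which understates low genes. Ratios printed beside levels are of FPKM without the pseudocount, with exact (Clopper-Pearson) 95% intervals of the read pairs. No p-value was computed. The genes, lists and settings were chosen with earlier results of these data known. All 10 genes were named, with up to 4 genes of each list by size of difference, given a mean of 1 FPKM or more. ESR1, PGR, ERBB2, CD44, IL11, IL1R1, IKBKB and TRAF2 were added. Steps were tested on simulated counts with counting error alone and changes larger than 2-fold. Such a test cannot show spread between replicates or how differences near 2-fold behave. Counts were TMM-scaled with edgeR 4.0.16 in R 4.3.3 as an alternative; other steps used Python 3.11.15, numpy 2.4.6, pandas 2.3.3, scipy 1.17.1 and matplotlib 3.10.9. Deposited lists of top genes and Gene Ontology terms held none of the 10 genes and were not used.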

Additional observations from a re-analysis of the deposited data

How the results depend on the processing

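No paired analysis was possible because each group held 1 library, and no library could be left out. Of all genes, 430 were at least 2-fold higher and 470 lower as reported. A pseudocount of 0.1 FPKM gave 717 and 847, a pseudocount of 5 FPKM 150 and 139, a mean of at least 5 FPKM 280 and 234, and a 1.5-fold threshold 1563 and 1296. Rescaling to equal sums gave 680 higher, and TMM scaling of the counts gave 742 lower. Of the NF-kB genes, 2 were at least 2-fold higher as reported, 0 with a pseudocount of 5 FPKM and 5 at 1.5-fold, where 1 was lower in place of 0. For the 7 lists around them, 2 higher and 15 lower as reported, the higher count was 4 with a pseudocount of 0.1 FPKM, 4 with TMM scaling and 12 at 1.5-fold, and the lower count was 6 with a pseudocount of 5 FPKM, 9 at a mean of at least 5 FPKM and 24 at 1.5-fold. A higher pseudocount or filter counts fewer genes by its construction, and a lower pseudocount or threshold counts more. The cause of the other changes was not tested. NFKB1 was the 1 gene of the 10 whose sign changed, at 0.03 after rescaling to equal sums. Adding the counts of overlapping genes, and rescaling without mitochondrial and the 20 most abundant genes, were chosen after the data were seen. Depth limits REL and TNFAIP3 most.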

Other observations

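The deposited table's own KEGG annotation gives a broader view of the pathway, looked at after the values were seen. It marks 93 genes of the table used here for NF-kappa B signaling, 7 of them among the 10 genes above; NFKBIB, NFKBIE and REL are not marked. Of the 60 whose mean reached 1 FPKM, 2 passed 2-fold on the higher side (3.63% of all genes did) and 5 on the lower side (3.97% did), and the median log2 difference was 0.08, beside 0.08 over all genes. The 2 higher genes were TRAF1 and GADD45B, a stress-induced survival gene, at 9.51 and 25.2 FPKM. Others outside the lists above, named after their values were seen, were CSNK2B, the regulatory subunit of casein kinase 2, at 31.6 and 57.5 FPKM, the kinase LYN at 4.16 and 7.62 FPKM, and the ubiquitin ligase TRIM25 at 17.4 and 11.2 FPKM.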
